A study of Mus musculus with 4 samples.

Results

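The Ly6 genes Ly6a, Ly6c1, Ly6c2, Ly6e, Ly6f and Ly6i of the mouse were followed through the RNA-seq libraries of MC38 cells. They are the rows of the deposited count table whose NCBI gene IDs belong to these 6 symbols, out of 27179 genes in the table. They were listed by name, with earlier results of these data known. All 6 rows were present. Ly6e was abundant in every library, Ly6a and Ly6c1 were low without IFN-γ and rose strongly with it, and Ly6c2, Ly6f and Ly6i had no counts or next to none.

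Ly6 proteins are small, cysteine-rich proteins that fold into a 3-fingered shape and are held on the outer face of the cell membrane by a glycosylphosphatidylinositol (GPI) anchor. Ly6a encodes Sca-1, the antigen used to sort mouse haematopoietic stem cells and, in several tumor models, cells with stem-like behaviour. Ly6c1 and Ly6c2 together make the Ly6C antigen of monocytes and other leukocytes, and Ly6e makes a widely expressed member known from virus entry and T cell studies. Ly6a, Ly6c and Ly6e are known as interferon-inducible genes in mouse cells. Ly6i and Ly6f are close relatives with narrower expression.

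MC38 is a mouse colon carcinoma line, labelled wild type here. Cells were left untreated or given IFN-γ, the type II interferon that signals through JAK kinases, and each was kept under normoxia or hypoxia. This gives 4 conditions: control under normoxia, control under hypoxia, IFN-γ under normoxia and IFN-γ under hypoxia. The study's methods state 5 ng/mL IFN-γ for 24 h for most of its experiments, and oxygen at 20% for normoxia and 1.5% for hypoxia. Each condition was sequenced once, so there is no replicate culture and no drug, deletion or transgene in any library. Totals ran from 34302971 to 34537939 counts.

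The stimuli left their usual marks in the libraries that carry their labels. Irf1, a transcription factor induced by IFN-γ, rose from 3770 counts under normoxia and 4422 under hypoxia to 20118 and 23759 with IFN-γ. Car9, a carbonic anhydrase induced by low oxygen, had 422 and 324 counts under normoxia against 1733 and 1536 under hypoxia. Egln3, an oxygen-sensing prolyl hydroxylase, moved the same way as Car9, with 1059 and 999 counts under normoxia and 2344 and 2269 under hypoxia. The label calls the cells colon cancer cells, but defining epithelial and colon markers were at or near zero: Cdh1 and Cdx2 had 0 counts in every library, Epcam had 2 counts in 1 library and 0 in the others, and the 9 markers of that list summed to between 93 and 117 counts per library, of which Krt8, a simple-epithelium keratin, gave 90, 56, 56 and 48. Of 9 haematopoietic markers, Itgam and Adgre1 had 0 counts in every library and Ptprc had 11, 7, 12 and 2, while the whole list summed to between 275 and 357 counts, most of them from Cd68 and Lyz2. The 5 endothelial markers summed to between 33 and 54 counts. The 6 fibroblast markers, led by Col3a1 and Pdgfra, summed to 4359 and 4838 without IFN-γ under normoxia and hypoxia and to 3768 and 3554 with it, lower in both IFN-γ libraries, and the part of this in the Ly6 changes was not tested. The haematopoietic sum was 310 and 357 without IFN-γ under normoxia and hypoxia and 324 and 275 with it. It was thus higher with IFN-γ under normoxia and lower under hypoxia, and its part in the Ly6 changes was not tested. In bulk RNA a change in the number of cells that express a gene and a change in RNA per cell cannot be told apart.

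The 6 genes lie in 1 cluster on mouse chromosome 15 (GRCm38, the build also called mm10), with Ly6e at chr15:74955051-74959905 on the plus strand, Ly6i at chr15:74979534-74983430, Ly6a at chr15:74994877-74998031, Ly6c1 at chr15:75044018-75048830 and Ly6c2 at chr15:75108158-75111970, these 4 on the minus strand, and Ly6f at chr15:75268421-75272235 on the plus strand. They span 317.2 kb. In the GENCODE annotation each has 3 coding exons, and no other annotated gene overlaps any of them. Their coding sequences are short, from 393 bases in Ly6c1 and Ly6c2 through 402 bases in Ly6a, Ly6f and Ly6i to 408 bases in Ly6e.

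How alike the copies are decides which of them short reads can tell apart. The first 60 bases of each coding sequence, from the start codon and read from the GENCODE transcripts, are shown with capitals at every base that differs from Ly6a at the same position, without gaps.
Ly6e: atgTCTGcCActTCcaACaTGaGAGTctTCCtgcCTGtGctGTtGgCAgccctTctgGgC
Ly6a: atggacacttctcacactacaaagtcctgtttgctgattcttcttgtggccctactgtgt
Ly6c1: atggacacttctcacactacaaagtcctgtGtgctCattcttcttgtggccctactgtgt
Ly6c2: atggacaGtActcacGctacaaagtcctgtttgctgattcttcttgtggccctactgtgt
Ly6i: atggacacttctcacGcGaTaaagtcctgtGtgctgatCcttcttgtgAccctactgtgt
Ly6f: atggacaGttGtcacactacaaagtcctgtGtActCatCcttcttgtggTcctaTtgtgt
Over these 60 bases Ly6c1 differed from Ly6a at 2 positions, Ly6c2 at 3, Ly6i at 6, Ly6f at 8 and Ly6e at 31. Over whole coding sequences, aligned end to end, Ly6c1 and Ly6c2 were identical at 384 of 393 bases (97.7%), and Ly6a was closest to Ly6i at 86.3%. Ly6e stood apart, at 49.5% to 52.3% identity to the others.

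Reads were 100 bases long and came from both ends of a fragment. A stretch of 100 bases that is present in another gene cannot place a read by itself, though the read from the other end may do so. In the main transcript of each gene, 15.3% of the 100-base stretches of Ly6c1 and 15.8% of those of Ly6c2 occur in another annotated gene, and 0 of those of Ly6a, Ly6e, Ly6f and Ly6i do. At 31 bases the shared part was 57.1% for Ly6c1, 53.8% for Ly6c2, 22.2% for Ly6a, 19.7% for Ly6i, 4.19% for Ly6f and 0.755% for Ly6e. Counts of Ly6e are therefore little exposed to reads from relatives, whereas the split between Ly6c1 and Ly6c2 is uncertain for the reads that match both. Over all annotated transcripts, and not the main one alone, Ly6c1 also holds 21.9% of the 31-base stretches of Ly6a and 1.45% of its 100-base stretches. Whether the counting kept, split or dropped such reads is not given in the sources used here, and sums over the copies are given beside each gene for that reason.

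Ly6e carried nearly all Ly6 reads. It had 8519 counts in the control library under normoxia, 8021 in the control library under hypoxia, 13618 with IFN-γ under normoxia and 14677 with IFN-γ under hypoxia. Both IFN-γ libraries lay above both control libraries, an order that 15.3% of the 13580 genes tested later also showed by CPM. On the CPM scale, which divides counts by the TMM-scaled size of the library, this was 245.9, 232.0, 397.0 and 428.3, which placed Ly6e at rank 751, 810, 410 and 357 among the 27179 genes.

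Ly6a, the gene of Sca-1, was counted 44 times in the control library under normoxia and 40 times in that under hypoxia. With IFN-γ it had 341 counts under normoxia and 474 under hypoxia, or 9.94 and 13.8 CPM against 1.27 and 1.16 CPM without it. Both IFN-γ libraries lay above both control libraries, an order that 15.3% of all tested genes also showed by CPM. The library with both stimuli was the highest of the 4, and how many genes share that was not counted.

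Ly6c1 followed the same order at a lower level, with both IFN-γ libraries above both control libraries as in 15.3% of all tested genes by CPM. Without IFN-γ it was counted 13 times under normoxia and 6 times under hypoxia, and with IFN-γ 78 and 102 times. Here too the library with both stimuli was highest, and the control library under hypoxia was lowest, though 6 counts leave a wide margin.

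The remaining copies were not detectable or nearly so at this depth. Ly6c2 and Ly6i had 0 counts in all 4 libraries, which allows up to 3 counts, or 0.0869 to 0.0875 CPM, in each. Ly6f had 2 counts in the control library under hypoxia and 0 in the others, under that same limit, so no change is given for these 3 genes. Ly6c2 had no count in the libraries where its near copy Ly6c1 had 78 and 102, although 84.2% of the 100-base stretches of its main transcript are found in no other gene.

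**Figure D1:**
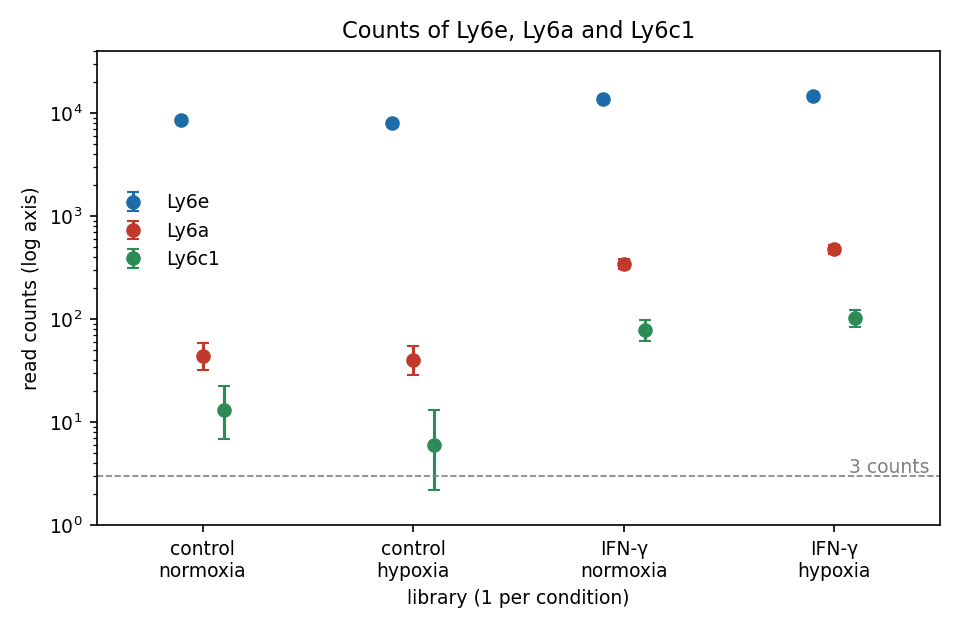
Read counts of Ly6e, Ly6a and Ly6c1 in each of the 4 libraries (log axis), 1 library per condition; points are the counts, bars are exact Poisson 95% intervals of the counts and the dashed line is the 3-count limit for a count of 0. All 3 genes sit higher in both IFN-γ libraries than in both control libraries, as 15.3% of all tested genes do by CPM, and Ly6c2, Ly6f and Ly6i, not drawn, are at 0 to 2 counts.

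Levels between genes were compared per kilobase of exon, since Ly6e has the longest transcripts. Per kilobase of merged exons, Ly6e was 61.7 times the level of Ly6a in the control library under normoxia (95% counting interval 45.9 to 84.9) and 63.9 times under hypoxia (46.9 to 89.5). With IFN-γ the ratio was 12.7 under normoxia (11.4 to 14.2) and 9.86 under hypoxia (8.998 to 10.8). Per length of the main transcript it was 69.5 and 72.0 in the control libraries and 14.3 and 11.1 with IFN-γ. The intervals do not cover this choice of length. The gap between the 2 genes therefore narrowed with IFN-γ at either oxygen level, but Ly6e stayed above Ly6a in all 4 libraries. Ly6a in turn stood above Ly6c1, by 4.71 times (2.49 to 9.53) and 9.28 times (3.91 to 26.8) in the control libraries under normoxia and hypoxia and by 6.08 times (4.75 to 7.89) and 6.47 times (5.21 to 8.09) with IFN-γ. These last 4 intervals overlap one another. Per length of the main transcript Ly6a stood above Ly6c1 by 3.488 and 6.87 times in the control libraries and by 4.505 and 4.789 times with IFN-γ. The order Ly6e, Ly6a, Ly6c1 held in every library, with the other 3 genes below the limit of detection.

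The effect of IFN-γ was estimated by edgeR's quasi-likelihood test from all 4 libraries with oxygen as a second term, so each value averages over normoxia and hypoxia, and p-values were adjusted over the 13580 genes that passed the low-count filter. With 1 library per condition the spread in this fit is the departure from additivity, which holds both differences between cultures and any true interaction of the stimuli. Of the 6 Ly6 genes, 3 passed the filter and all 3 rose with IFN-γ, where 4.76% of all tested genes rose and 1.1% fell. The filter asks for counts in some library, and Ly6c1 passed it through its IFN-γ libraries.

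Ly6a rose by a log2 change of 3.28 (SE 0.183, edgeR adjusted p = 1.13e-68), a 9.69-fold increase. Ly6c1 rose by 3.23 (SE 0.387, edgeR adjusted p = 4.78e-15), or 9.41-fold. Ly6e rose by 0.79 (SE 0.0528, edgeR adjusted p = 1.08e-47), or 1.73-fold. Ranked by log2 change among the 647 genes raised by IFN-γ, Ly6a was 48th, Ly6c1 was 50th and Ly6e was 289th. The sizes of these p-values depend on the fit. The fit above took the spread as common to all genes of a given level, with infinite prior degrees of freedom, whereas the same edgeR fit with DESeq2 size factors estimated 21.1 and gave adjusted p = 2.62e-12 for Ly6a, 2.55e-06 for Ly6c1 and 6.42e-11 for Ly6e. Without the oxygen term, comparing 2 libraries with 2, the adjusted p was 0.00078, 0.0109 and 0.00399 in edgeR, the highest of the alternatives for each gene.

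**Figure D2:**
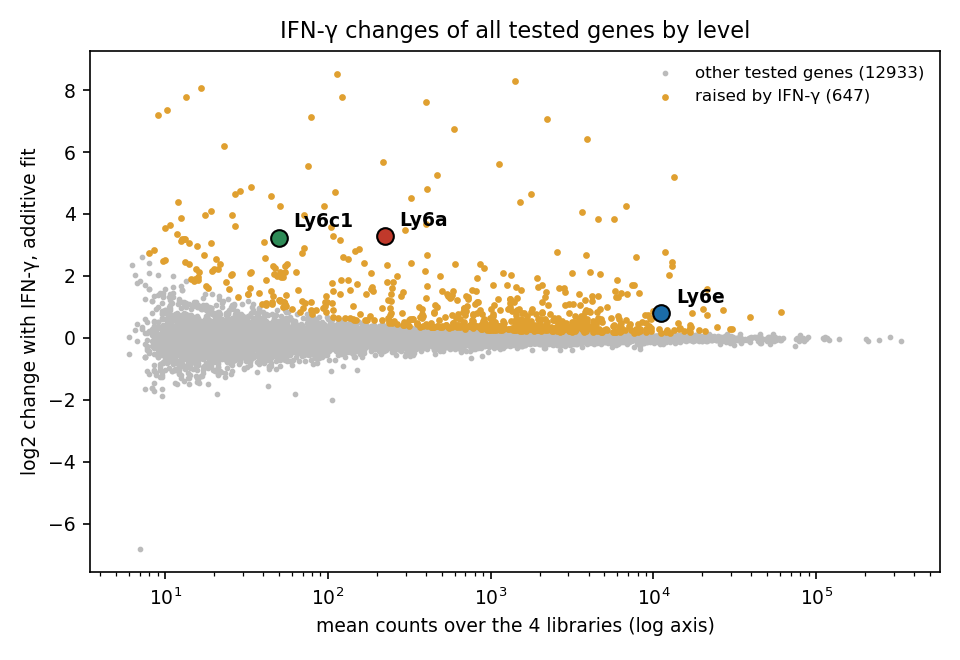
Each point is 1 of the 13580 tested genes, with its mean counts over the 4 libraries (log axis) against its log2 change with IFN-γ in the additive edgeR fit; orange points are the 647 genes raised at an adjusted p under 0.05, and the Ly6 genes are marked by name. Ly6a and Ly6c1 lie at log2 changes of 3.28 and 3.23 at low to middle counts, and Ly6e lies at 0.79 among the most counted of the raised genes.

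Single pairs of libraries give the IFN-γ change at each oxygen level, with exact 95% intervals that cover counting error only. Ly6a changed by 2.95 on the log2 scale under normoxia (2.51 to 3.46) and by 3.56 under hypoxia (3.11 to 4.08). Ly6c1 changed by 2.55 under normoxia (1.74 to 3.57) and by 3.99 under hypoxia (2.93 to 5.58). Ly6e changed by 0.69 under normoxia (0.65 to 0.73) and by 0.88 under hypoxia (0.85 to 0.92). At each oxygen level the intervals of Ly6a and Ly6c1 overlapped each other and lay wholly above that of Ly6e. Small counts in the table were even far more often than odd (between 63.97% and 66.35% of genes with 1 to 10 counts), as happens when both ends of a fragment are counted, so intervals were also computed from halved counts. These are wider, for example 2.32 to 3.68 for Ly6a and 1.46 to 4.25 for Ly6c1 under normoxia, and none of the 6 IFN-γ intervals reached 0.

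Hypoxia raised or lowered none of the 3 tested Ly6 genes in the additive fit at an adjusted p under 0.05, where 8.23% of all tested genes rose and 6.83% fell. Ly6a had a log2 change of 0.34 (SE 0.169, edgeR unadjusted p = 0.0434, edgeR adjusted p = 0.171). DESeq2 called none of the 3, but gave Ly6a and Ly6c1 no adjusted p. Over all 13580 genes DESeq2 called 362 raised and 214 lowered with hypoxia. Ly6c1 changed by 0.11 (SE 0.352, edgeR adjusted p = 0.891) and Ly6e by 0.01 (SE 0.0526, edgeR adjusted p = 0.904). The 2 pairs behind each average had opposite signs. Without IFN-γ, hypoxia moved Ly6e by -0.08 (95% counting interval -0.13 to -0.04), Ly6a by -0.13 (-0.79 to 0.52) and Ly6c1 by -1.05 (-2.79 to 0.38). With IFN-γ, it moved Ly6e by 0.11 (0.08 to 0.14), Ly6a by 0.48 (0.27 to 0.68) and Ly6c1 by 0.39 (-0.05 to 0.83).

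**Figure D3:**
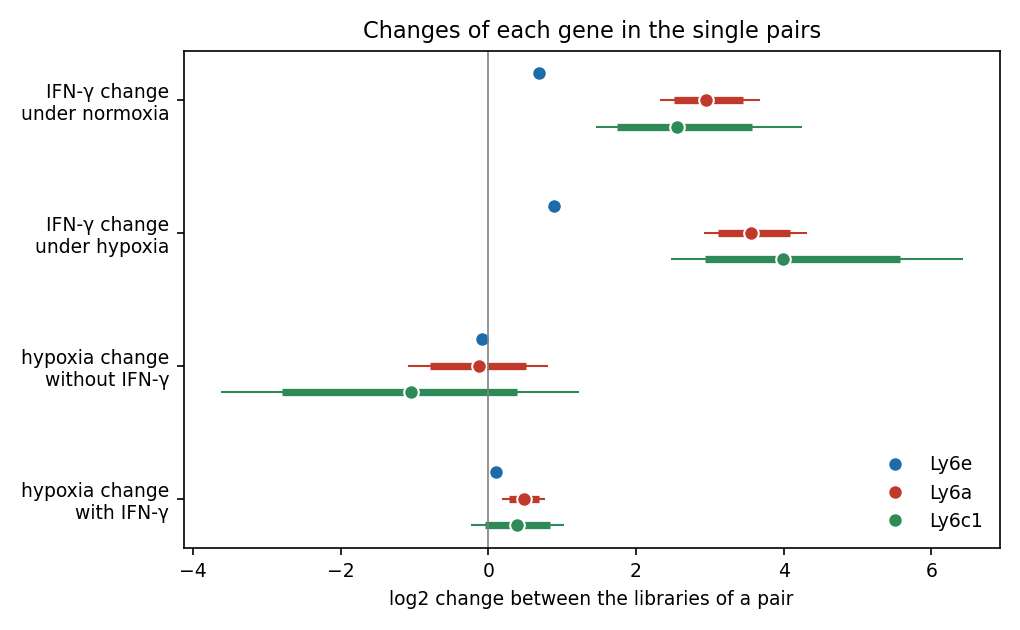
Log2 change of Ly6e, Ly6a and Ly6c1 between the libraries of each of the 4 pairs; points are the changes, thick bars are 95% counting intervals from the counts as deposited and thin bars those from halved counts, hidden behind the point for Ly6e. All IFN-γ changes lie right of 0, and each gene's hypoxia change lies left of 0 without IFN-γ and right of 0 with it, with intervals that cross 0 for Ly6a and Ly6c1 without IFN-γ and for Ly6c1 with it.

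The IFN-γ change was larger under hypoxia than under normoxia for all 3 genes. The difference of the log2 changes, hypoxia minus normoxia, was 0.19 for Ly6e (95% counting interval 0.14 to 0.25), 0.61 for Ly6a (-0.04 to 1.26) and 1.44 for Ly6c1 (0.02 to 2.85). From halved counts the interval of Ly6c1 was -0.56 to 3.44 and included 0. For the 10443 genes that reached 100 counts in each of the 4 libraries, the central 95% of this difference ran from -0.36 to 0.40, and the value of Ly6e lies within it. For 1860 tested genes whose control libraries averaged 20 to 100 counts, it ran from -1.38 to 1.40, and the value of Ly6a lies within that. Ly6c1, with 13 and 6 counts in the control libraries, belongs to neither set, so its value has no such range here. With 5 added counts in place of 0.5 the difference of Ly6c1 was 1.08. Without replicate cultures the difference could not be tested.

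Summed over the 6 genes, control cells gave 8576 counts under normoxia and 8069 under hypoxia, and IFN-γ-treated cells gave 14037 and 15253. The sum rose with IFN-γ by 0.73 on the log2 scale under normoxia (95% counting interval 0.69 to 0.76) and by 0.93 under hypoxia (0.89 to 0.97), close to the values of Ly6e, which supplied 93.4% and 92.7% of the added counts. Ly6e made up 99.3% and 99.4% of the sum in the control libraries and 97.0% and 96.2% with IFN-γ. The share of Ly6a in the sum was 0.513% (exact 95% interval 0.373% to 0.688%) and 0.496% (0.354% to 0.674%) without IFN-γ and 2.43% (2.18% to 2.70%) and 3.11% (2.84% to 3.40%) with it.

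Without Ly6e, the other 5 genes, which are the close copies, summed to 57 and 48 counts without IFN-γ and to 419 and 576 with it. If reads common to these copies were divided among them, this sum is not affected by the division, but it is if such reads were dropped or counted for each copy. It rose by 2.88 on the log2 scale under normoxia (95% counting interval 2.49 to 3.32) and by 3.58 under hypoxia (3.17 to 4.05). The hypoxia change of this sum was -0.24 without IFN-γ (-0.83 to 0.33) and 0.46 with it (0.28 to 0.65). The sum of Ly6c1 and Ly6c2 equals Ly6c1 in every library, because Ly6c2 had no counts.

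Induced and silent copies lay next to each other along the locus. Of the 25 genes of the count table within 250 kb of the outermost Ly6 genes, the 19 others include 7 with 0 counts in every library and 15 with at most 10 counts in any library. Only 3 of the 19 passed the low-count filter. Them6 had the most counts (3123 and 2682 without IFN-γ under normoxia and hypoxia, 3463 and 3217 with it) and rose by 0.22 (SE 0.0639, edgeR adjusted p = 0.0133). Lynx1, a Ly6-type modulator of nicotinic receptors, had 209 and 204 counts under normoxia and 296 and 270 under hypoxia and rose with hypoxia by 0.46 (SE 0.144, edgeR adjusted p = 0.0153). Slurp1 had between 12 and 20 counts and passed neither test. DESeq2's Wald test called none of these 3 genes for either stimulus. Over all 13580 genes it called 353 raised and 16 lowered with IFN-γ, and 362 raised and 214 lowered with hypoxia. These totals, lower than those of edgeR, are the background for its calls in this and the later lists. Between Ly6e and Ly6f, 3 other genes of the table, Ly6a2, Ly6g and Ly6g2, had at most 4 counts in any library, so Ly6i, with 0 counts, sits between the 2 induced genes Ly6e and Ly6a.

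**Figure D4:**
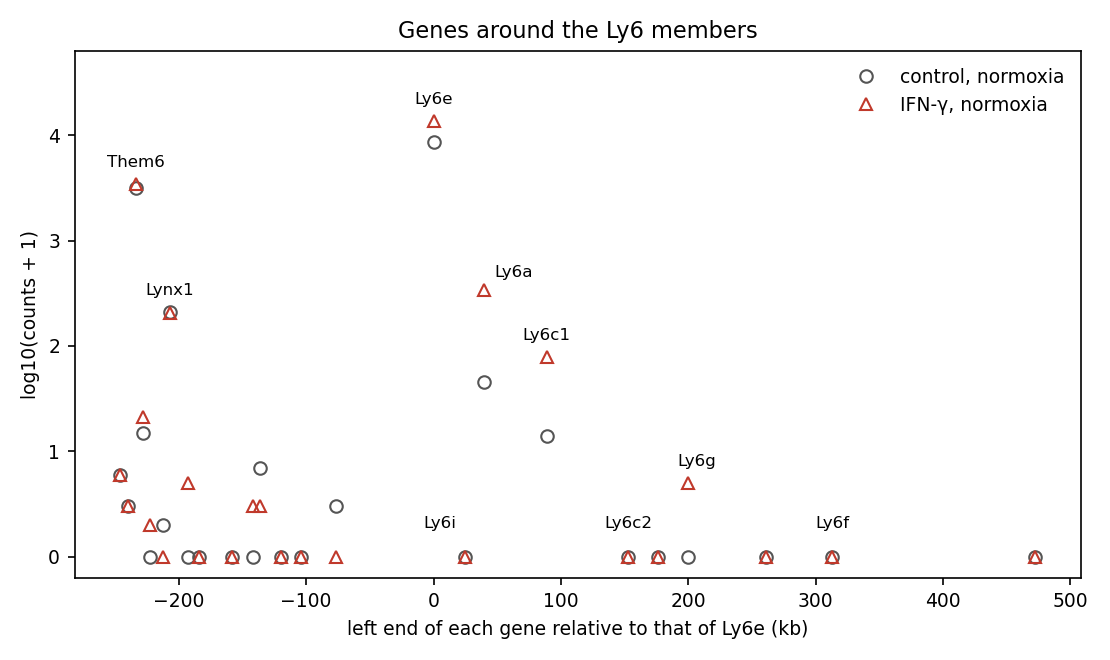
Genes of the count table around the Ly6 genes, by the position of their left end relative to that of Ly6e in kb, against log10 of counts plus 1 in the control and IFN-γ libraries under normoxia. Ly6e, Ly6a and Ly6c1 stand above the rest of the right-hand stretch and have their IFN-γ symbol above their control symbol, while Ly6i, Ly6c2 and Ly6f lie at 0 in both libraries shown.

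Promoter sequences from RefSeq (GRCm38.p6), running from 250 bases before to 50 bases after a transcript start, were matched for 3 of the 6 genes, as 2 windows each for Ly6c1 and Ly6c2 and 1 for Ly6f. They were searched on both strands for TTCNNNGAA (the GAS element, for interferon-gamma activated site), GAAANNGAA (a core of the interferon-stimulated response element), ACGTG and GCGTG (cores of the hypoxia response element). None of the 5 windows held any of the 4 strings. Among all 32851 promoters of the same length, 8.3% held the first, 8.56% the second, 19.6% the third and 32.4% the fourth. Aligned end to end, the 250 bases upstream of the first listed start of Ly6c1 and of Ly6c2 matched at 164 of 284 alignment columns (57.7%). Gap columns count as mismatches there, and the shared run lies at different distances from the 2 starts. The value is therefore not comparable with that of the coding sequences. The longest run identical between these windows was 20 bases, GATGCCAGCTGGGAGGAGCT, in capitals throughout because the whole run is shared. It ends 21 bases before the start of Ly6c1 and 46 bases before that of Ly6c2.

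Other genes of the Ly6 and urokinase receptor family were mostly at very low counts. Of 39 listed, 37 were in the table, 27 of these had at most 10 counts in any library, and 8 were tested. None of the 8 rose or fell with IFN-γ in edgeR, where 4.76% of all tested genes rose and 1.1% fell, and DESeq2 called 0. Their median log2 change was 0.09 beside -0.01 over all tested genes. Plaur, the urokinase receptor and the most counted relative after Ly6e, was counted 4866 and 4290 times without IFN-γ and 4970 and 4371 times with it, and fell with hypoxia by 0.18 on the log2 scale (edgeR adjusted p = 0.0202). Tex101 had between 72 and 97 counts. With hypoxia, Lynx1 rose and Plaur fell among these 8 in edgeR, and DESeq2 called neither.

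GPI anchoring is shared by the Ly6 proteins with many others, and most of its genes passed the low-count filter. Of 30 genes for building and remodelling the anchor, 27 were tested, 1 rose with IFN-γ and 1 fell, with a median log2 change of -0.03. Counts this small are not set apart from the 4.76% and 1.1% of all tested genes that rose and fell. Pgap2, which remodels the lipid of the anchor, rose by 0.32 (SE 0.083, edgeR adjusted p = 0.00284), and Pgap6, a GPI-specific phospholipase, changed by -0.30 (SE 0.0979, edgeR adjusted p = 0.0391). With hypoxia Piga, of the complex that starts anchor synthesis, rose by 0.41 (edgeR adjusted p = 0.00133) and Gpaa1, of the complex that attaches it to proteins, changed by -0.19 (edgeR adjusted p = 0.0361). Pigt, Pigs and Gpaa1 were the most counted, with 5240 to 6240, 3332 to 3787 and 2371 to 2834 counts. DESeq2 called 0 of the 27 for either stimulus.

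Of 40 other GPI-anchored surface proteins, 21 were tested and 1 rose with IFN-γ, the same share as the 4.76% over all tested genes. This was Bst2 (tetherin, which holds budding virus at the membrane), counted 12248 and 12807 times without IFN-γ and 21965 and 21702 times with it, a log2 change of 0.82 (SE 0.0504, edgeR adjusted p = 4.07e-56), next to 0.79 for Ly6e. The median over the 21 was -0.03. Msln (9436 to 10509 counts) and Gpc1 (7649 to 8975) were the other highly counted genes of this list and passed neither test. With hypoxia Cd109 rose by 0.23 (edgeR adjusted p = 0.0173) and Gas1 fell by 0.24 on the log2 scale (edgeR adjusted p = 0.0112). DESeq2 called Bst2 alone with IFN-γ and 0 of the 21 with hypoxia.

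The IFN-γ signalling genes gave the setting for these changes. All 11 listed genes were tested, 7 rose with IFN-γ and 1 fell, with a median of 0.80, where 4.76% of all tested genes rose and 1.1% fell. Irf1 rose by 2.43 (SE 0.0548), Stat2 by 1.51 (SE 0.0591) and the feedback inhibitors Socs1 and Socs3 by 1.5005 (SE 0.0904) and 0.94 (SE 0.121), all below the 3.28 of Ly6a. The receptor gene Ifngr1 changed by -0.25 (SE 0.078, edgeR adjusted p = 0.0309). With hypoxia 5 of the 11 rose, Jak2 by 0.30, Jak1 by 0.29, Stat2 by 0.25, Ifngr1 by 0.24 and Irf1 by 0.24, and none fell, beside 8.23% raised and 6.83% lowered over all tested genes. DESeq2 called 7 of the 11 with IFN-γ and 3 with hypoxia. Over all 13580 genes it called 353 raised and 16 lowered with IFN-γ, and 362 and 214 with hypoxia.

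The genes whose profile over the 4 libraries was nearest that of Ly6a, by Euclidean distance between centred log2 CPM values among 11488 genes that averaged 50 counts or more, were Cxcl11, Tnfsf10 and Gbp9. Cxcl11, a chemokine, was counted 24 and 24 times without IFN-γ and 198 and 232 times with it (distance 0.23). Tnfsf10, the death ligand TRAIL, had 48 and 50 against 410 and 689 (distance 0.30), and Gbp9, a guanylate-binding GTPase, had 37 and 46 against 337 and 442 (distance 0.32). For Ly6e they were Asap3 (183 and 173 against 293 and 321, distance 0.02), Hap1 (679 and 636 against 1100 and 1131, distance 0.05) and Lgals3bp, the galectin-3 binding protein (2974 and 2933 against 5102 and 5345, distance 0.07). Ly6c1 averaged under 50 counts and was not ranked. With 4 libraries such nearness describes the shape of a profile over these conditions and nothing more.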

How the data were processed

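RNA-seq of MC38 cells was deposited by the authors as whole-number counts of reads per gene, not normalized, in 1 table of 27179 NCBI gene IDs with 1 column for each of the 4 libraries. Per the labels, poly-A RNA was made into strand-specific libraries and sequenced as paired 100-base reads. The study aligned reads with Hisat2, and the submitters' processing notes name featureCounts and mm10; its settings for pairs, strand and shared reads are not given in the sources used here. Symbols came from a RefSeq table (GRCm38.p6), which matched 25275 IDs. Coordinates, exon lengths and transcripts are from GENCODE M21 (GRCm38).

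Counts as deposited were fitted with edgeR 4.0.16 (R 4.3.3) by its quasi-likelihood test, with TMM factors, the low-count filter at its default minimum of 10 counts, IFN-γ and oxygen as additive terms, 1 residual degree of freedom and Benjamini-Hochberg adjustment at 0.05. The edgeR and DESeq2 fits were also run on simulated counts without interaction, drawn at the spread that the main fit estimated. Such counts cannot show how the fits do on real cultures. Each SE was back-calculated as the absolute log2 change divided by the square root of the quasi-likelihood F statistic, since edgeR prints none. Single-pair log2 ratios used 0.5 added counts and Clopper-Pearson 95% intervals. The difference of 2 such ratios has a Poisson interval. Shares have exact binomial intervals. The intervals of single counts, level ratios and shares, and the limit of 3 counts, were not recomputed from halved counts. All intervals and the limit of 3 counts for a count of 0 cover counting error only. The p-values of the main fit set a change against the departure from additivity, pooled over genes. No spread between replicate cultures was observed.

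The 6 genes and all lists were chosen with earlier results of these data known. From each list and from the locus, up to 4 genes per direction and stimulus with an adjusted p under 0.05 were named by size, with up to 3 tested genes of most counts, and for each Ly6 gene with a mean of at least 50 counts the 3 nearest profiles. Irf1 among the 5 signalling genes raised by hypoxia, and Ly6a2, Ly6g and Ly6g2 as the 3 other genes between Ly6e and Ly6f, were named after their values were seen. Alternatives were DESeq2 size factors, DESeq2 1.42.0's Wald test, no low-count filter, at least 10 counts in every library, 2 libraries against 2, total counts, and 5 added counts. Intervals from halved counts, DESeq2's calls within lists and the genes with 20 to 100 control counts were chosen after seeing the data. Protein sequences were not used here, and 1 gene of the signalling and check lists is not reported here.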

Additional observations from a re-analysis of the deposited data

Results flagged for a closer look

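The 3 counted Ly6 genes were lower in the hypoxia library than in the normoxia library without IFN-γ, and higher with it. The counting intervals of these changes included 0 for Ly6a and Ly6c1 without IFN-γ and for Ly6c1 with it. The hypoxia change with IFN-γ minus that without it was 0.1938 for Ly6e, 0.6092 for Ly6a and 1.4381 for Ly6c1 on the log2 scale, which equals the difference of the IFN-γ changes, and it drew attention because the sign differs between the 2 pairs. With 1 library per condition the difference was not tested. The same order of signs was found in 16.1% of the 13580 tested genes and in 22.7% of the 647 genes raised by IFN-γ. For Ly6c1 the control libraries hold 13 and 6 counts.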

How the results depend on the processing

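All 3 tested Ly6 genes rose with IFN-γ under every alternative that tested them, and no alternative called a Ly6 gene changed by hypoxia or lowered by IFN-γ. Ly6c1 was not tested with at least 10 counts in every library. The hypoxia change of Ly6c1 reversed, from 0.11 to -0.1753, under DESeq2's Wald test, which gave neither it nor Ly6a an adjusted p for hypoxia; the cause was not tested. The sums kept their direction and stayed within their counting intervals with total counts, DESeq2 size factors or 5 added counts, as did the differences of the 3 genes and of the 6-gene sum with total counts or 5 added counts. Over all genes, IFN-γ raised 647 and lowered 149, against 239 to 587 and 3 to 93 under the alternatives, and hypoxia raised 1117 and lowered 927, against 150 to 983 and 26 to 821. Within the lists DESeq2 called fewer genes than edgeR for hypoxia, 3 against 5 of the 11 IFN-γ signalling genes and 0 of those in the Ly6 relatives, the locus and both GPI lists. It also called fewer over all genes, with 362 raised and 214 lowered by hypoxia. The low end of the interval for the Ly6c1 difference went from 0.02 to -0.56 with halved counts. With 5 added counts, 3 of 3 nearest genes of Ly6a and 2 of 3 of Ly6e were shared with the ranking in the text. No paired analysis was possible because the labels give no replicates to pair, beyond the oxygen term, which sets each IFN-γ library against the control at its own oxygen level. Leaving out a library would leave the additive fit no residual degree of freedom. Of the 3 counted genes, Ly6c1 has the widest intervals, and no change can be given for Ly6c2, Ly6f and Ly6i.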
